A study of Mus musculus with 9 samples.

Results

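The genes described are 10 transcription factors of the naive pluripotent state: Nanog, Esrrb, Tfcp2l1, Klf2, Klf4, Klf5, Tbx3, Nr0b1, Nr5a2 and Zfp42. They were chosen by symbol from the deposited count table, and all 10 were present among its 16636 genes. RNA was sequenced from E14 cells, a mouse embryonic stem cell line. All cells were kept in the naive state on fibronectin in 2i/LIF medium, with the MEK inhibitor PD0325901 at 1 µM, the GSK3 inhibitor CHIR99021 at 3 µM and the cytokine LIF at 1000 U/ml. The study compared 3 groups of 3 biological replicates. One was left untreated, one received siRNA against luciferase as a control (siLuc), and one received siRNA against Stag3 (siStag3), which encodes a cohesin subunit that the series title places in the exit from pluripotency. Each siRNA was applied for 48 hours in 2 lipid transfections of 50 pmol, at seeding and on the next day. The untreated cells are labelled with a wildtype genotype and no treatment, so transfection itself separates them from both siRNA groups. The siStag3 samples alone are labelled with the genotype Stag3 knockdown.

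Naive pluripotency is held by a network in which several of these factors bind and activate one another's genes together with Oct4 (Pou5f1) and Sox2. The medium feeds into the network at several points. LIF acts through STAT3 on Klf4 and Tfcp2l1, GSK3 inhibition relieves Tcf7l1 repression of Esrrb, Klf2 and Tfcp2l1, and MEK inhibition favours Nanog and Klf2. When the inhibitors and LIF are withdrawn, RNA from these genes declines while formative genes such as Otx2 and Fgf5 rise. The cells measured here had not been withdrawn.

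The sequence before the start of transcription was examined for 8 of the 10 genes, as 250 bases from RefSeq on GRCm38.p6, in 11 windows. Klf5 and Tbx3 had no entry. The first pair shown belongs to Klf2 and Klf4, the members called higher in Set 3 than in Set 1 (labels of the libraries explained below), a call that a correction for GC content ended. That correction used the GC content of transcripts, not of promoters. A link between promoter sequence and the set difference was not tested. Both run 5′ to 3′, and capitals mark the GC box CCCCGCCC on either strand. Klf2 lies at chr8:72318812-72319061 on the plus strand and Klf4 at chr4:55532476-55532725 on the minus strand.

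Klf2 promoter: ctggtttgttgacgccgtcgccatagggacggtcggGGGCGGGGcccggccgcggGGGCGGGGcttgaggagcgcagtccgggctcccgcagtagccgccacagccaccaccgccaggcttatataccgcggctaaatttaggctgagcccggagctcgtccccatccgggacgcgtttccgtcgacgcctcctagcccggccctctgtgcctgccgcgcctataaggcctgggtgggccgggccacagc
Klf4 promoter: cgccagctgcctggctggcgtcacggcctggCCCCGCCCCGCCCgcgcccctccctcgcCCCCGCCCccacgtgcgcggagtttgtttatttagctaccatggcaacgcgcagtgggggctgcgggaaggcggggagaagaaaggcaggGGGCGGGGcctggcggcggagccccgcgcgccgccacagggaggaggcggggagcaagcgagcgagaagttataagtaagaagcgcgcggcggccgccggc

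The Klf2 window held 2 GC boxes and the Klf4 window 4, of which the first pair overlap each other. GC made up 71.2% of the Klf2 window and 74.0% of the Klf4 window, against a median of 52.4% over 32851 promoter windows of the same length. A GC box was present in 16.1% of all those windows and in 3 of the 11 member windows, which belong to 3 of the 8 genes. The third gene was Zfp42.

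The second pair is shown because Nanog and Zfp42 were the members whose windows held TTTGCAT, the core of the octamer that Oct4 binds. Nanog lies at chr6:122707239-122707488 on the plus strand and Zfp42 at chr8:43307010-43307259 on the minus strand. Capitals mark TTTGCAT and, in Zfp42, a GC box that overlaps a CACCC box (CCACACCC), the kind of sequence that KLF proteins bind.

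Nanog promoter: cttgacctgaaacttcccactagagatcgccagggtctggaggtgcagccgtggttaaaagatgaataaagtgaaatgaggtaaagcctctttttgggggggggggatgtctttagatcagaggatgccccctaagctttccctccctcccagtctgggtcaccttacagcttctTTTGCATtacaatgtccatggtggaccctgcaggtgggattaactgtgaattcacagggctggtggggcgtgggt
Zfp42 promoter: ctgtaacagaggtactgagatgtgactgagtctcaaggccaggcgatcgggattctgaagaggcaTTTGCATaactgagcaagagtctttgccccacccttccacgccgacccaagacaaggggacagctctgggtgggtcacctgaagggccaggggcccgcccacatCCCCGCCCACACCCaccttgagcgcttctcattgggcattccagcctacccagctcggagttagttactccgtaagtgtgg

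The first base of TTTGCAT stood 75 bases before the start in the Nanog window shown, 151 before a second Nanog start, and 185 before that of Zfp42. TTTGCAT occurred in 4.12% of all windows, and CCACACCC in 3.20%. On both strands, no window of the 8 genes held the ERR site AAGGTCA, the T-box site AGGTGTGA, the STAT site TTCCNGGAA or the TCF site ATCAAAG, which occurred in 4.08%, 1.12%, 0.913% and 3.21% of all windows. These are matches of letters in a short window, and binding was not measured.

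The libraries held 29332436 to 44527534 counts, and 3 counts, the limit that a count of 0 allows, equalled 0.0674 to 0.102 CPM, which are counts scaled to library size. These limits take in counting error alone. Column names carry a set number and an experiment number, whose meaning the labels do not give, and each group had 2 libraries of Set 1 (experiments 1 and 3) and 1 of Set 3. The Set 3 library was experiment 1 for siLuc and experiment 5 for the other groups, so within Set 3 the siLuc treatment and the experiment number cannot be told apart. Libraries of different sets differed widely, with 42.7% of 14246 tested genes called between the sets, and the tests therefore carried the set as a covariate. Stag3 was at 24.1, 24.3 and 28.6 CPM in untreated cells, 22.5, 23.3 and 26.7 CPM with siLuc, and 13.5, 15.2 and 15.6 CPM with siStag3. Its difference between siStag3 and siLuc was -0.71 on the log2 scale (SE 0.0722, edgeR quasi-likelihood adjusted p = 0.00205), and -0.71 with an adjusted p of 0.605 when the set was left out of the model.

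The label of naive stem cells was compared with 7 listed markers other than the members. Pou5f1 was between 800.2 and 958 CPM and Sox2 between 282 and 367 CPM in all libraries. Dppa5a was at 890 to 1246 CPM, Tdgf1 at 311 to 422 CPM, Sall4 at 329 to 381 CPM and Fgf4 at 234 to 257 CPM. Dppa3 was the lowest of the list, at 21.4 to 50.4 CPM. Levels of formative genes such as Otx2 and Fgf5 were not set beside these. The list therefore does not separate naive from other pluripotent cells. Defining factors of primitive endoderm were near the floor, with Gata4 at most 0.412 CPM, Gata6 at most 0.365 CPM and Sox17 at most 0.280 CPM. The summed level of 8 primitive endoderm markers was 66.1 to 92.4 CPM in untreated, 57.5 to 72.4 CPM in siLuc and 56.9 to 73.4 CPM in siStag3 libraries, most of it Lama1. In other lists 1 group stood apart from the others. The 5 measured trophoblast markers summed to 69.2 to 71.7 CPM in untreated, 70.1 to 73.0 CPM in siLuc and 61.0 to 64.6 CPM in siStag3 libraries, of which Tfap2c gave at least 55.8 CPM and Cdx2 at most 2.02 CPM. Mesoderm markers summed to 6.76 to 8.47 CPM, 3.72 to 6.62 CPM and 4.60 to 5.48 CPM in the same order. Of the neural markers, Nes was at 22.6 to 26.4 CPM in untreated, 29.3 to 30.2 CPM in siLuc and 28.3 to 33.5 CPM in siStag3 libraries. Pax6 was at 2.25 to 2.61 CPM, 3.31 to 3.85 CPM and 2.90 to 3.40 CPM in that order, and Sox1 at most 1.32 CPM. The mitochondrial share of counts was 3.48%, 4.41% and 5.33% in the untreated, 5.98%, 6.08% and 6.73% in the siLuc and 4.10%, 6.60% and 6.78% in the siStag3 libraries, so untreated and siLuc did not overlap. Groups free of overlap were common among single genes. Of all tested genes, 19.9% had no overlap between siLuc and untreated libraries. The share was 10.0% between siStag3 and untreated and 6.59% between siStag3 and siLuc. The part of these markers and of the mitochondrial share in the results was not tested. Fibroblast markers summed to at most 2.78 CPM and the 3 measured two-cell-like markers to at most 0.825 CPM. In bulk RNA, fewer cells expressing a gene and less RNA per cell cannot be told apart.

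All 10 members were abundant. Scaled per length of the longest coding transcript to TPM, a scale on which genes can be compared, they lay between the 84.7th and the 98.9th percentile of genes. Zfp42, also known as REX1 and widely used as a reporter of the naive state, had the highest level on this length at a mean of 681 TPM over 9 libraries (range 639 to 717). Nanog, a homeodomain factor, followed at 659 TPM (596 to 699). These ranges overlapped each other and lay wholly above those of the other 8 genes.

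Tfcp2l1 and Esrrb, a CP2-family factor and an orphan nuclear receptor, came next at 328 TPM (271 to 401) and 316 TPM (288 to 372). Klf2 stood at 247 TPM (201 to 306), overlapping Esrrb. Klf5 and Klf4, the other Krüppel-like factors, were at 144 TPM (131 to 155) and 135 TPM (116 to 154), below every Klf2 value and overlapping each other. The lowest were Tbx3, a T-box factor, at 80.7 TPM (72.1 to 98.7), Nr0b1, also called Dax1, at 76.4 TPM (63.1 to 87.3), and Nr5a2, a nuclear receptor also called LRH-1, at 63.0 TPM (53.8 to 69.9). Each of these overlapped its neighbour in the order.

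The order depended on the transcript length used. With the median length of each gene's transcripts, Nanog (469 TPM) stood above Zfp42 (457 TPM), Klf4 rose from the seventh to the fourth place at 308.5 TPM, and Nr5a2 from the tenth to the seventh at 103.8 TPM. Shared sequence also limits these levels. Among 31-base stretches of the GENCODE M21 transcripts, 13.4% of those in Zfp42 and 10.4% of those in Nanog also occurred in transcripts of other genes, among them the copies Zfp42-ps1 and Nanog-ps1, so the values of these genes are uncertain to that extent. The share was at most 2.25% in each of the other 8, and for Tbx3 1.33% matched the opposite strand, chiefly Tbx3os1.

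The comparison of siStag3 with siLuc asks whether Stag3 depletion altered these RNAs in cells kept in 2i/LIF. None of the 10 members passed an adjusted p of 0.05 in edgeR's quasi-likelihood test, where 0.0281% of all tested genes did (4 genes). At an unadjusted p under 0.05 the members called were also 0, against 1122 of the 14246 tested genes. DESeq2 with the same covariate called 0 of 10 against 0.157% of genes (22 genes). Values with siStag3 were higher for 7 members and lower for 3, with a median log2 difference of 0.034 over the members and -0.0048 over all genes. The CPM of both groups overlapped for all 10 members, while 6.59% of tested genes had no overlap.

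**Figure D1:**
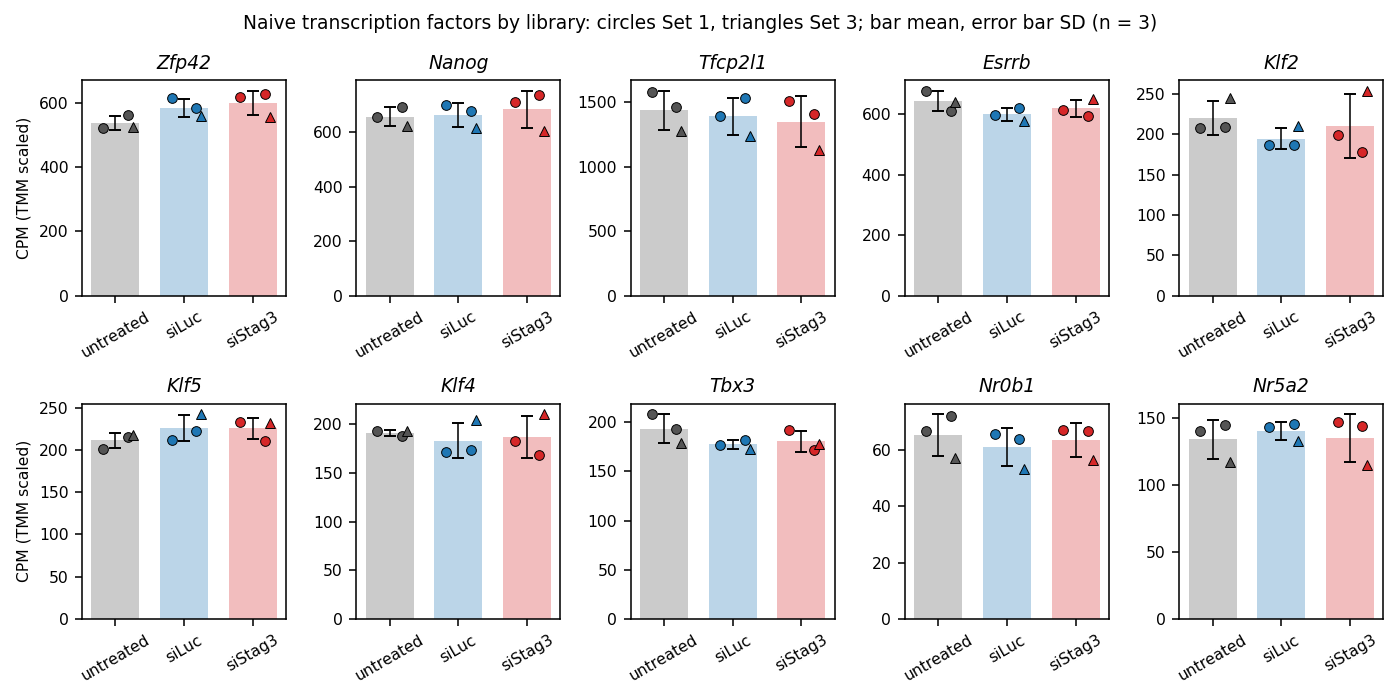
Each panel gives 1 gene, with CPM scaled by TMM factors on a linear axis from 0, libraries as points (circles Set 1, triangles Set 3), bars as means and error bars as SD of 3 libraries. The points of the 3 groups overlap in every panel, and the Set 3 triangles are the lowest points of their group for Nanog, Tfcp2l1, Nr0b1 and Nr5a2.

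Nanog was at 699.7 and 677 CPM in the Set 1 and 615 CPM in the Set 3 library of siLuc, and at 709.8, 737 and 605 CPM with siStag3. The means were 664 ± 43.9 CPM and 684 ± 69.4 CPM (SD, n = 3). The Set 1 libraries of siStag3 were above those of siLuc and its Set 3 library below, and the fitted log2 difference was 0.040 (SE 0.0541, 95% interval -0.076 to 0.16). Nanog in untreated cells was at 655, 693 and 623 CPM, within the range of both siRNA groups.

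Esrrb gave 599, 622 and 579 CPM with siLuc and 614, 596 and 652 CPM with siStag3, in the order experiment 1 of Set 1, experiment 3 of Set 1, then Set 3, which is kept for all genes below. The difference was 0.048 (log2, SE 0.0593), and its sign varied among the pairs of libraries: 0.033 and -0.061 within Set 1 and 0.17 within Set 3. Untreated cells gave 679, 612 and 641 CPM, and the highest of these lay above every siRNA library. Esrrb had the smallest spread of the 10 genes over 9 libraries, an SD of 0.0711 in log2 CPM. The median of 5661 genes of at least 5 log2 CPM was 0.125. The SD over 9 libraries takes in any difference between the sets. With group and set taken out, the SD was 0.0705 for Esrrb and 0.0381 for Nr0b1, the smallest of the 10.

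Tfcp2l1 RNA was measured at 1394, 1533 and 1242 CPM with siLuc and at 1511, 1407 and 1129 CPM with siStag3. The Set 3 library was the lowest in each group, also among the untreated libraries at 1576, 1463 and 1274 CPM. The difference between siStag3 and siLuc was -0.048 (log2, SE 0.0607), smaller than the spread between libraries of 1 group.

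Among the Krüppel-like factors, which can stand in for one another in sustaining self-renewal, Klf2 had the largest difference of all 10 members, 0.10 (log2, SE 0.0655, 95% interval -0.041 to 0.24, edgeR adjusted p = 0.720). Klf2 was at 187, 187 and 210.3 CPM with siLuc and at 199, 178 and 254 CPM with siStag3. Set 3 supplied most of this, with a log2 difference of 0.27 between its 2 libraries against 0.0084 between the means in Set 1, and with a correction for GC content the fitted difference was 0.011. Klf4 gave 171, 174 and 204 CPM with siLuc and 183, 168 and 211 CPM with siStag3, a difference of 0.032 (log2, SE 0.0631). Klf5 showed almost equal means, 226 ± 15.4 CPM with siLuc and 225 ± 12.7 CPM with siStag3 (SD, n = 3). Its fitted log2 difference was -0.00054 (SE 0.0587).

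Tbx3 acts downstream of PI3K signals to sustain Nanog. Its RNA was at 177, 182 and 173 CPM with siLuc and at 192, 172 and 178 CPM with siStag3. Nr0b1 had the lowest CPM of the members, at 65.8, 64.0 and 53.3 CPM with siLuc and 67.2, 66.7 and 56.5 CPM with siStag3. Nr0b1 was the single member with a higher siStag3 value in all 3 pairs, by 0.031, 0.060 and 0.084 on the log2 scale. Its fitted difference was 0.058 (SE 0.0563, edgeR adjusted p = 0.801). In comparisons with siLuc, the Set 3 pair joins libraries of different experiment numbers. The share of all genes with the same sign in all 3 pairs was not computed, here or for the pairs named below.

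Nr5a2, which binds regulatory regions of Oct4 and Nanog, was at 143, 145 and 133 CPM with siLuc and 147, 144 and 115 CPM with siStag3. Its difference of -0.062 (log2, SE 0.0586) was the lowest of the 10 genes, with -0.21 within Set 3 and 0.012 within Set 1. Zfp42 gave 613, 583 and 558 CPM with siLuc and 617, 627 and 556 CPM with siStag3, a difference of 0.036 (log2, SE 0.0540). Its groups covered nearly the same range.

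Across the 10 members the 95% intervals of this comparison ran from a log2 value of -0.19 for Nr5a2 to 0.24 for Klf2, which is from 87.8% of the siLuc level to 1.18-fold. The p-values do not show that the groups were alike. The difference had the same sign in both sets for 5 of the 10 genes.

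Between siLuc and untreated cells, which differ in the transfection and the control siRNA, no member passed the test, and the values furthest from 0 were those of Klf2, Tbx3 and Zfp42. Here edgeR called 4.2% of tested genes (598 genes) and 0 of the 10 members. At an unadjusted p under 0.05 there were 2 members, Klf2 and Zfp42, among 3964 of the 14246 tested genes. DESeq2 called 0 members and 11.6% of genes (1328 genes). No member had groups free of overlap, where 19.9% of tested genes did. The median log2 difference was -0.059 over the members, 4 of them higher, and -0.0024 over all genes. Contrasts with untreated cells share the same 3 untreated libraries.

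Klf2 was at 208, 209.5 and 245 CPM in untreated cells against 187, 187 and 210.3 CPM with siLuc. Each siLuc library lay below the untreated library of its set, although the ranges of the groups met at 208 to 210.3 CPM. The log2 difference was -0.18 (SE 0.0654, 95% interval -0.32 to -0.037, edgeR adjusted p = 0.109), and with GC correction it was 0.019. When the Set 3 library of siStag3 was left out of the fit, Klf2 passed at an edgeR adjusted p of 0.0358, where 17.0% of genes (2458 genes) were called. With the 6 compared libraries alone it passed at 0.0440, where 12.8% of genes (1801 genes) were called. The log2 difference of Klf2 was -0.18 in both.

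Zfp42 stood at 523, 562 and 525 CPM in untreated cells, and 2 of the 3 siLuc libraries were above all of these. The difference was 0.12 (log2, SE 0.0540, 95% interval 0.0067 to 0.24, edgeR adjusted p = 0.160). It was 0.14 within Set 1 and 0.086 within Set 3. Tbx3 was at 208, 194 and 179 CPM in untreated cells and lower in the siLuc library of each pair, with a log2 difference of -0.12 (SE 0.0610, edgeR adjusted p = 0.204).

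Of the others, Klf5 was at 201, 215 and 218 CPM in untreated cells and differed by 0.095 (log2, SE 0.0586), and Nr5a2 at 140.2, 145 and 117 CPM differed by 0.071 (SE 0.0585). Klf4 was within 187 to 193 CPM in untreated cells and differed by -0.069 (SE 0.0630), with -0.14 within Set 1 and 0.077 within Set 3. Esrrb and Nr0b1, the latter at 66.8, 72.0 and 57.2 CPM in untreated cells, differed by -0.10 (SE 0.0592) and -0.099 (SE 0.0560). Tfcp2l1 differed by -0.049 (SE 0.0607) and Nanog by 0.014 (SE 0.0541). With GC correction the sign turned for Nanog, Klf2, Klf4, Nr0b1 and Nr5a2, so no common direction of the members is given.

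**Figure D2:**
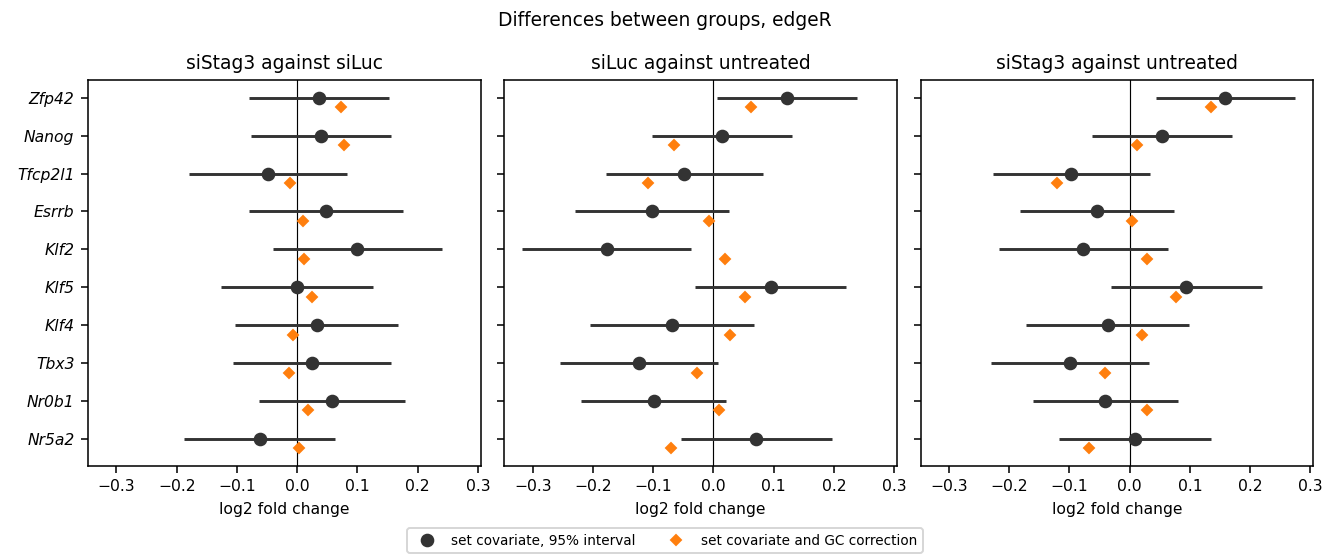
Log2 fold changes of the 10 genes (x axis) in the 3 comparisons, from edgeR with the set as covariate (circles, bars 95% intervals) and with an added GC correction (diamonds). No circle lies further than 0.18 from 0, and the GC-corrected value of Klf2 in siLuc against untreated is 0.019 where the uncorrected one is -0.18.

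Against untreated cells, siStag3 libraries again had 0 of the 10 members called, where edgeR called 2.53% of tested genes (361 genes). DESeq2 called 0 members and 3.3% of genes (415 genes). Zfp42 was the single member with an unadjusted p under 0.05, among 2417 of the 14246 tested genes. Its difference of 0.16 (log2, SE 0.0540, 95% interval 0.043 to 0.28, edgeR adjusted p = 0.147) was 0.20 within Set 1 and 0.083 within Set 3, and 0.14 with GC correction. The siStag3 value of Zfp42 was above the untreated one in all 3 pairs, yet its lowest library, 556 CPM, was under the highest untreated one, 562 CPM.

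Tbx3 and Tfcp2l1 were lower with siStag3 than in untreated cells in all 3 pairs, with fitted log2 differences of -0.099 and -0.097 (SE 0.0610 and 0.0607, edgeR adjusted p = 0.427 and 0.432). Klf2 differed by -0.077, Esrrb by -0.054, Nr0b1 by -0.041 and Klf4 by -0.037. Klf5 differed by 0.094, Nanog by 0.054 and Nr5a2 by 0.0089. With GC correction the sign turned for Klf2, Klf4, Esrrb, Nr0b1 and Nr5a2. The groups overlapped for all 10 members, where 10.0% of tested genes had none, and the median over the members was -0.039 against -0.0056 over all genes.

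Several members differed between the sets. Between Set 3 and Set 1, edgeR called 6 of the 10 members, 2 higher and 4 lower, where it called 42.7% of all tested genes, 21.4% higher and 21.2% lower. The same 6 genes had no overlap of CPM between the 3 libraries of Set 3 and the 6 of Set 1, as did 26.2% of tested genes. Each group contributed 2 libraries to Set 1 and 1 to Set 3. The labels do not say whether a set is a biological or a technical grouping.

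Klf2 was at 178 to 209.5 CPM in Set 1 and at 210.3 to 254 CPM in Set 3, a log2 difference of 0.28 (SE 0.0560, edgeR adjusted p = 0.00154). Klf4 was at 168 to 193 CPM in Set 1 and 193 to 211 CPM in Set 3, a difference of 0.18 (SE 0.0542, edgeR adjusted p = 0.0181). In both genes the lowest Set 3 library stood barely above the highest of Set 1. Without the Set 3 library of siLuc or that of siStag3, Klf4 no longer passed (edgeR adjusted p = 0.0698 and 0.102).

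Tfcp2l1 had the largest difference, -0.29 (log2, SE 0.0532, edgeR adjusted p = 0.000913), with 1394 to 1576 CPM in Set 1 and 1129 to 1274 CPM in Set 3. Nr0b1 fell from 64.0 to 72.0 CPM in Set 1 to 53.3 to 57.2 CPM in Set 3, by 0.27 on the log2 scale (SE 0.0492, edgeR adjusted p = 0.000811). Nr5a2 went from 140.2 to 147 CPM down to 115 to 133 CPM (log2 -0.25, SE 0.0512, edgeR adjusted p = 0.00187). Nanog was at 655 to 737 CPM in Set 1 and 605 to 623 CPM in Set 3 (log2 -0.18, SE 0.0472, edgeR adjusted p = 0.00856), and without the Set 3 library of siStag3 it no longer passed (adjusted p = 0.0760).

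Klf5 (0.098), Esrrb (0.0075), Tbx3 (-0.085) and Zfp42 (-0.10) did not pass between the sets, with edgeR adjusted p-values of 0.135, 0.920, 0.209 and 0.0928. Summed over the 10 members, Set 1 libraries held 4263 to 4473 CPM and Set 3 libraries 3989 to 4073 CPM. Tfcp2l1 weighs most in this sum, at 1394 to 1576 CPM in Set 1 and 1129 to 1274 CPM in Set 3. By fitted difference, 4 members were higher in Set 3 and 6 lower, so the sum does not describe each member. In an edgeR test of whether the group differences varied between sets, 0 of 10 members and 0.0421% of all genes (6 genes) passed. None of the members had an unadjusted p under 0.05 in that test, against 2267 of 14246 genes. DESeq2 was not run on this question.

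GC content of the transcripts moved with the set difference in several of these genes. Klf2 has the highest GC content of the 10, 61.6%, and Klf4 is at 54.6%, while Nr5a2 (43.2%), Nanog (45.8%) and Tfcp2l1 (47.0%) are among the lower ones. Nr0b1 departs from that order, with a GC content of 55.2% and a lower level in Set 3. Esrrb (54.9%) and Tbx3 (54.2%) are near Klf4 in GC content, yet without GC correction they were not called between the sets. Klf5 (47.9%) and Zfp42 (46.4%) were not called either, and of these Klf5 was higher in Set 3 and Zfp42 lower. With GC correction, the set differences of Klf2 (0.014, edgeR adjusted p = 0.806), Klf4 (0.049, 0.389), Nanog (-0.069, 0.135) and Nr5a2 (-0.081, 0.0798) no longer passed the test. Those of Nr0b1 (-0.42, 4.12e-07) and Tfcp2l1 (-0.19, 0.00200) still did.

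With the same correction Tbx3 (-0.21, edgeR adjusted p = 0.000326), Esrrb (-0.12, 0.0120) and Klf5 (0.15, 0.00558) passed as well. That made 5 members called, where 41.5% of all genes were. Nr0b1 and Tfcp2l1 were thus the members called lower in Set 3 in both fits.

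**Figure D3:**
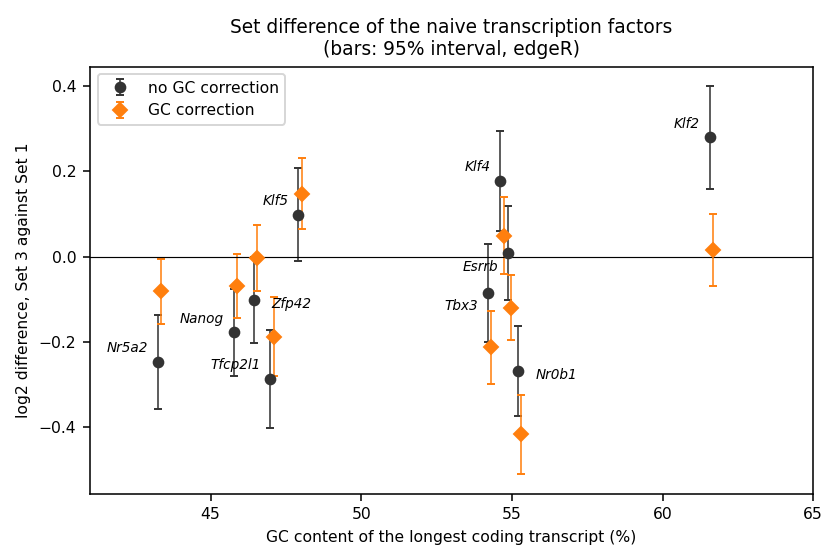
Log2 difference of Set 3 against Set 1 (y axis) for each gene by the GC content of its longest coding transcript in percent (x axis), from edgeR without (circles) and with (diamonds, drawn slightly to the right) GC correction, bars 95% intervals. Klf2, at 61.6% GC, moves from 0.28 to 0.014 with the correction, and Nr0b1, at 55.2% GC, from -0.27 to -0.42.

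The genes around the members were taken as lists. Beside them, the same edgeR fit called 0.0281% of all tested genes in siStag3 against siLuc. It called 4.2% in siLuc against untreated and 2.53% in siStag3 against untreated. Of 7 core partners, Pou5f1, Sox2, Sall4, Prdm14, Gbx2, Utf1 and Lin28a, none was called between siStag3 and siLuc. Against untreated cells, siLuc had 1 partner higher and 1 lower: the RNA-binding protein gene Lin28a (log2 0.22, edgeR adjusted p = 0.0343) and Gbx2, a homeobox target of LIF (-0.47, 0.00764). With siStag3 the partners called were Utf1, a chromatin-associated factor (0.51, 0.0428), and again Gbx2 (-0.53, 0.00363). The median log2 differences of the list were 0.062 and -0.011, where those of all genes were -0.0024 and -0.0056.

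Of 17 genes of the LIF, WNT and MEK inputs, 0 were called between siStag3 and siLuc. With siLuc, 2 were higher and 4 lower than in untreated cells, where 4.2% of all tested genes were called (2.53% with siStag3). The largest differences were in Spry4, a feedback inhibitor of receptor signalling (log2 0.77, edgeR adjusted p = 0.0402), Egr1, an immediate early gene (-0.69, 0.00162), and Sp5, a WNT target (-0.60, 0.00370). With siStag3, 1 was higher and 3 lower, led by Egr1 (-0.67, 0.00182), Sp5 (-0.61, 0.00328) and Axin2, another WNT target (-0.50, 0.00237). Egr1 did not pass with GC correction (adjusted p = 0.0696 and 0.0622).

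Of 12 regulators of the exit from naive pluripotency, among them Tcf7l1, Flcn and Zfp281, none was called in the 3 comparisons, and of 17 tested paralogs of the members none was called either. With GC correction, 1 exit regulator was called higher against untreated cells in each siRNA group, Jarid2 with siLuc (log2 0.17, edgeR adjusted p = 0.0200) and Etv5 with siStag3 (0.17, 0.0186). The paralog Tfcp2 was then called lower with both (-0.18, 0.0398, and -0.24, 0.00500). These names were chosen after their values were seen. Among 12 tested formative and primed genes, 0 were called between siStag3 and siLuc without GC correction. Against untreated cells that fit called 4.2% of all tested genes with siLuc and 2.53% with siStag3. Otx2, a formative homeobox factor, was higher than in untreated cells with siLuc (log2 0.48, edgeR adjusted p = 0.00982) and with siStag3 (0.51, 0.00638). With siStag3, Lef1, a WNT effector (-0.65, 0.00234), and T, the mesoderm factor Brachyury (-1.06, 0.0294), were lower.

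None of the named genes of these lists passed when the set was left out of the model, where edgeR called 0.00702% of genes (1 gene) in siLuc against untreated and 0.014% (2 genes) in siStag3 against untreated. Between siStag3 and siLuc that model called 0 genes, with 307 at an unadjusted p under 0.05 and 7 called by DESeq2 without the set. With GC correction edgeR called 0.428% of genes in siStag3 against siLuc, 7.01% in siLuc against untreated and 6.77% in siStag3 against untreated. The members called were 0 of 10 in each of these fits. Of the pathway lists, Lin28a (log2 -0.23, adjusted p = 0.0144) and Lef1 (-0.41, 0.0319) were lower with siStag3 than with siLuc in that GC-corrected edgeR fit.

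**Figure D4:**
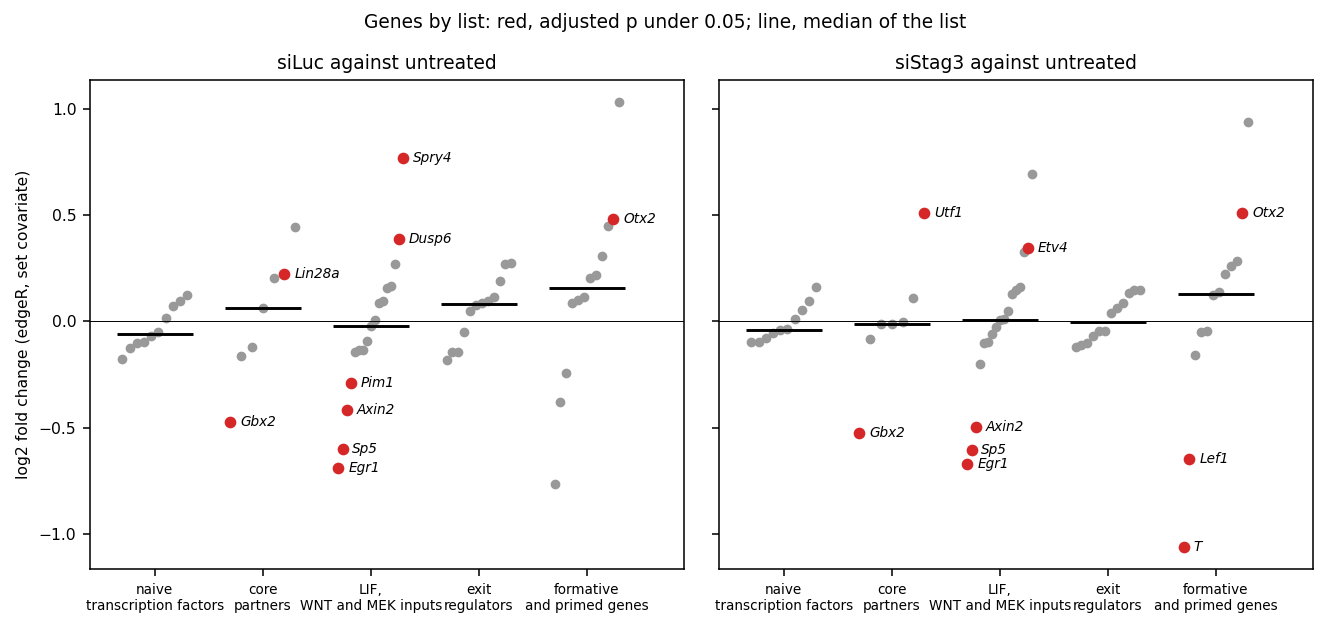
Log2 fold changes (y axis, edgeR with the set as covariate) of the tested genes of 5 lists (x axis) against untreated cells, for siLuc on the left and siStag3 on the right. Red points passed an adjusted p of 0.05, and lines are list medians. The 10 naive factors lie between -0.18 and 0.16 in both panels, and none is red.

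Since no member was called between groups, likeness of pattern was listed for Nanog and Esrrb alone, as Pearson correlation of log2 CPM over 9 libraries after taking the mean of each set from its libraries, among 9060 genes. Nanog was most like Mtch2 (r = 0.968), Oard1 (0.961) and Pcna (0.945). Esrrb was most like Atn1 (0.992), Zmiz2 (0.988) and Rbm14 (0.988), whose transcripts have GC contents of 62.0%, 59.1% and 56.2%. The points share libraries, scaling and group, and the correlations were the highest of many.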

How the data were processed

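Bulk RNA-seq of 9 libraries was used. The authors deposited a table of counts per gene, all whole numbers, with 16636 genes and a smallest sum of 9 counts per gene. The submitters' processing notes name FastQC, Salmon, DESeq2 and GRCm39. Salmon gives estimated counts, so the deposited counts may be rounded estimates. Strand setting and annotation release are not given in the sources used here. Libraries were made with a KAPA mRNA kit, per the labels. Column names gave each library's group, set and experiment, but not the replicate numbers of the titles. The labels call the replicates biological without saying whether they were separate cultures, so p-values measure the spread between these libraries.

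Counts were tested with edgeR 4.0.16 in R 4.3.3 (TMM factors, filterByExpr, robust glmQLFit, glmQLFTest, two-sided), with group and set in 1 fit of all 9 libraries, over 14246 genes that included all 10 members. The set covariate was used because the libraries were known to separate by set. The biological coefficient of variation was 7.62% with it and 14.6% without. P-values were corrected over all tested genes (Benjamini-Hochberg), and genes under 0.05 are said to be called. The interaction of set and group was tested in a further edgeR fit. CPM values were scaled by TMM factors. Where GC correction is named, the median deviation of genes in 20 bins of GC content was taken from each library. Transcript lengths, GC content and shared 31-base stretches came from GENCODE M21 transcripts (GRCm38), which held 16604 of the 16636 gene IDs. No genome of the build in the notes was used. The script was tested on simulated data. With the set as covariate, 17 of 190 called genes were false, and 77% of changes of 0.5 and 96% of changes of 1 (log2) were recovered. Without the set, 0 of 96 called genes were false, and 15% and 81% were recovered. The alternatives were no set covariate, GC correction, Set 1 alone, a block of set and experiment, DESeq2 1.42.0 size factors and Wald test, total-count scaling, other filters, a non-robust fit, the compared libraries alone and leaving out each library. The DESeq2 test without the set was added after seeing the data.

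The members, lists and tests were chosen with earlier results of these data known. All members and Stag3 were named. From each list, up to 3 called genes with the largest absolute log2 fold change per contrast were named, and 3 genes most like Nanog and Esrrb. The neural list is given by single genes, and its sum is not reported here.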

Additional observations from a re-analysis of the deposited data

How the results depend on the processing

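Of the members, 0 were called between groups in each alternative except siLuc against untreated. There 1 (Klf2) was called with the 6 compared libraries alone, against 12.8% of genes. Leaving out each library gave 0 to 1 in that comparison, against 0.771% to 17.0% of genes. Between the sets it gave 4 to 7, against 28.9% to 44.0% of genes. The total-count fit called 7 between the sets, against 43.6% of genes. Over all genes, edgeR called 4, 598 and 361 genes in siStag3 against siLuc, siLuc against untreated and siStag3 against untreated. It called 0, 1 and 2 without the set and 61, 998 and 965 with GC correction, and DESeq2 called 22, 1328 and 415 with the set and 7, 56 and 73 without. The block of set and experiment called 2, 86 and 352, Set 1 alone 4, 298 and 949, and the compared libraries alone 1, 1801 and 301. Some differences turned sign, the largest of them Klf2 in siLuc against untreated, at -0.18 without GC correction. With GC correction, siStag3 against siLuc gave Klf4 -0.0073, Klf5 0.024, Tbx3 -0.013 and Nr5a2 0.0037. In siLuc against untreated it gave Nanog -0.065, Klf2 0.019, Klf4 0.028, Nr0b1 0.0095 and Nr5a2 -0.071. In siStag3 against untreated it gave Klf2 0.029, Klf4 0.021, Esrrb 0.0032, Nr0b1 0.028 and Nr5a2 -0.067, and between sets Esrrb -0.12. In siStag3 against siLuc, Set 1 alone gave Klf5 0.030, Esrrb -0.015 and Nr5a2 0.011, and a block of set and experiment gave Klf5 0.030 and Nr5a2 0.0013. Klf5 was also 0.0038 with DESeq2 size factors and its Wald test, 0.0024 with that test without the set, and 0.0062 by total count. Total-count scaling moved the median of all genes to -0.053 in siLuc and -0.050 in siStag3 against untreated, Nanog to -0.037 in siLuc and Nr5a2 to -0.036 in siStag3 against untreated. Without 1 library, siStag3 against siLuc ran from -0.00091 to 0.081 for Esrrb, -0.0096 to 0.084 for Klf4, -0.045 to 0.036 for Klf5, -0.088 to 0.0015 for Nr5a2 and -0.0070 to 0.080 for Tbx3. Likewise, siLuc against untreated ran from -0.019 to 0.050 for Nanog, siStag3 against untreated from -0.11 to 0.018 for Klf4 and -0.013 to 0.059 for Nr5a2, and the sets from -0.041 to 0.054 for Esrrb. The cause was not tested. No paired analysis was possible because the count columns lack the replicate numbers of the titles, and that holds for those numbers only, since the block of set and experiment was fitted. Within Set 1, deviations of libraries with the same experiment number correlated at -0.0254, -0.0439 and -0.0371.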
